A study of Mus musculus with 8 samples.

Results

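Calpains and caspases are cysteine proteases that act outside the lysosome. The 8 genes described here are the calpain genes Capn1, Capn2, Capn3 and Capns1, the calpain inhibitor gene Cast, and the caspase genes Casp8, Casp9 and Casp12. They were taken by symbol from a gene count table of mouse quadriceps and are 8 of its 35494 symbols. The muscle came from wild-type male C57BL/6 mice that were 8 weeks old at the start. The scMC38 group is 4 mice injected subcutaneously with 1000000 cells of MC38, a colorectal cancer line from the mouse. The control group is 4 mice given an equal volume of PBS. Tissue was taken at day 28 and each mouse gave 1 library of whole quadriceps RNA.

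Calpains are activated by calcium and cut their targets at few sites, so that large sarcomere and membrane proteins are released rather than digested. Capn1 and Capn2 encode the catalytic subunits of the ubiquitous calpains, which both pair with the small subunit from Capns1 and are blocked by calpastatin, the product of Cast. Capn3 encodes a calpain found mainly in skeletal muscle, which binds titin, and its loss causes a limb-girdle muscular dystrophy in humans. Caspases cut after aspartate. Caspase-8 starts the death receptor arm of apoptosis, caspase-9 starts the mitochondrial arm, and caspase-12 sits at the endoplasmic reticulum. Calpains and caspases are regulated largely after translation, so mRNA levels describe the supply of these proteins and not their activity.

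No member passed the test between tumour-bearing and control mice. At an adjusted p under 0.05, edgeR called 0 of the 8 members higher and 0 lower, where it called 1.2% of all 14112 tested genes (0.737% higher and 0.468% lower). An unadjusted p under 0.05 was found for 0 members and for 21% of all genes. DESeq2 and limma-voom also called 0 members, where they called 1426 and 148 of the 14112 genes. Log2 fold changes (scMC38 minus control) ran from -0.16 for Capn3 to 0.31 for Casp8, with 5 positive and 3 negative and a median of 0.042, against 0.00087 over all tested genes. The precision differed between the members. The 95% intervals of the 5 calpain system genes spanned folds from 0.751 to 1.21 in all, whereas the interval of Casp8 ran from 0.777-fold to 1.99-fold.

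**Figure D1:**
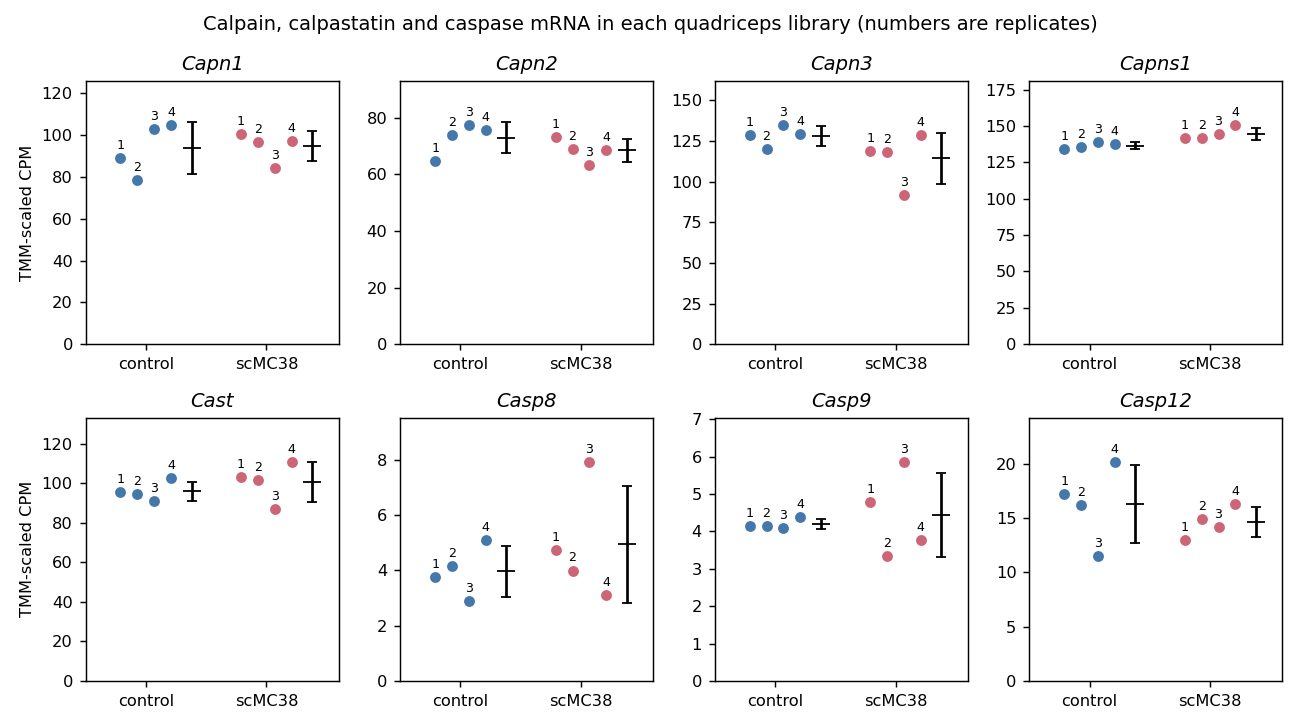
Each panel shows 1 gene in CPM (counts per 1000000 after TMM scaling, vertical axis from 0), with 1 numbered point per library and the mean with its SD in black for each group of 4. Control and scMC38 points overlap in all panels but that of Capns1. The library scMC38 3 is the lowest point for Capn2, Capn3 and Cast and the highest for Casp8 and Casp9.

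The libraries held between 50.5 and 62.1 M counts (M, 1000000). Muscle fibre genes were abundant in all of them: the 10 fibre markers, such as Acta1 and Ckm, summed to between 103413 and 150910 CPM, none was at 0 in any library, and scMC38 3 had the lowest sum. The libraries scMC38 1 and 3 stood apart by neutrophil and bone marker mRNA, whose origin was not tested. The 12 neutrophil markers summed to between 2.00 and 8.12 CPM in controls, 462 CPM in scMC38 1 and 4188 CPM in scMC38 3, against 12.1 and 34.4 CPM in scMC38 2 and 4. The 9 bone markers summed to between 25.1 and 43.1 CPM in controls, 125 CPM in scMC38 1 and 1032 CPM in scMC38 3, against 23.0 and 17.7 CPM in scMC38 2 and 4. Ibsp, a bone matrix gene, was at 0 in 3 of the controls and in scMC38 2. Red cell markers separated the groups: all 7 were called higher in scMC38, with sums of 501 to 1087 CPM in controls and 1643 to 2872 CPM in scMC38, and their part in the members' values was not tested. In whole muscle, fewer cells of a type and less RNA per cell cannot be told apart.

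Per kb of transcript, Capns1 was the most abundant member and Casp9 the least. These levels divide CPM by the length of 1 reference transcript per gene from GENCODE M21, so they are approximate where several isoforms are made. Capns1 stood at 95.5 ± 1.48 CPM per kb in controls (SD, n = 4), above Capn3 at 40.4 ± 1.91. Cast (32.9 ± 1.65 CPM per kb) and Capn1 (30.7 ± 4.04) followed, and their control libraries overlapped. Capn2 lay lower at 22.6 ± 1.74 CPM per kb, below each control library of Capn1. Casp12 stood at 6.14 ± 1.36 CPM per kb, above Casp8 (1.54 ± 0.357) and Casp9 (1.08 ± 0.0346), whose ranges overlapped. The order of the means was the same in scMC38. The 5 calpain system genes were thus all above the 3 caspases, and Casp8 and Casp9 stood at only 3.97 and 4.19 CPM in controls before division by length.

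Capn3 had the smallest p of the 8, although it did not pass. Its control libraries held 128, 120, 135 and 129 CPM, and its scMC38 libraries 119, 118, 91.9 and 129 CPM, in the order of replicates 1 to 4. The groups overlapped, and scMC38 3 was the lowest library by a wide margin. The log2 fold change was -0.16 (SE 0.11, 95% interval -0.41 to 0.08, adjusted p = 0.413). It shrank to -0.07 when scMC38 3 was left out (adjusted p = 0.626). The value with neither scMC38 1 nor 3 was -0.03 (adjusted p = 0.879). The library scMC38 3 also had the lowest sum of fibre markers and the highest sums of bone and neutrophil markers, and their part in its Capn3 level was not tested. Capn2 (63.2 CPM) and Cast (87.1 CPM) were lowest in that library too.

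The RefSeq start window of Capn3 that lies nearest to the start of its reference transcript is shown because it matches motifs of muscle transcription factors. It holds a MEF2 site and an E-box (CAGCTG), both in capitals, on the plus strand of mouse chromosome 2 (chr2:120463373-120463592, GRCm38.p6), ending at the base before the start site.

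Capn3 upstream: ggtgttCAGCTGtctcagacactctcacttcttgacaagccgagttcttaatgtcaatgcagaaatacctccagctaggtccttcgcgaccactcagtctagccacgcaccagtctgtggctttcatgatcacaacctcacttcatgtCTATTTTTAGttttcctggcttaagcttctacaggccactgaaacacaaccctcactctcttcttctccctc

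MEF2 and E-box binding factors drive many muscle genes. On either strand, a MEF2 site was present in 3.19% and CAGCTG in 16.3% of all 32851 RefSeq start windows of the same length, which span 250 bases before and 50 after a start site. Of the 13 windows of the 8 members, the MEF2 letters stood only in this one. CAGCTG also stood in the second Capn3 window and in 1 of the 4 Cast windows. The FOXO element GTAAACA matched in none of the 13, where 3.65% of all windows hold it. These matches are letters and not measured binding.

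The genes whose levels followed Capn3 most closely over the 8 libraries were Mmgt1 (Pearson r = 0.987), Cpeb3 (r = 0.978) and Ldb3 (r = 0.976), out of 8024 genes whose log2 CPM averaged 3 or more. Ldb3 encodes a Z-disc protein. All were lowest in scMC38 3, as Capn3 was, and none of them passed the test between groups. For Capns1, the member with the next smallest p, the closest were Nop14 (r = 0.983), Alg1 (r = 0.976) and Sorbs3 (r = 0.969). All were highest in scMC38 4, as Capns1 was.

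Capns1, the shared small subunit, was the only member whose groups did not overlap. Controls held 134, 135, 139 and 137 CPM and scMC38 libraries 142, 141, 144 and 151 CPM. All scMC38 values thus lay above all controls, but the difference did not pass the test. The log2 fold change was 0.08 (SE 0.07, 95% interval -0.07 to 0.23, adjusted p = 0.494). Such a separation was found for 13.3% of all tested genes, 6.82% with scMC38 higher and 6.45% with scMC38 lower, so 1 of 8 members is near the background. With total counts alone in place of TMM, Capns1 stood at 0.19 (edgeR unadjusted p = 0.0427, adjusted p = 0.202). In that fit the median of all genes moved by 0.11.

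Neither catalytic subunit gene of the ubiquitous calpains passed the test, and the group means of Capn1 differed by less than either group's SD. Capn1 held 89.2, 78.5, 103 and 105 CPM in controls and 101, 96.8, 84.2 and 96.9 CPM in scMC38. Control 1 and 2 were low among controls, and scMC38 3 was low among tumour-bearing mice. In log2 terms Capn1 differed by 0.01 (SE 0.11, 95% interval -0.24 to 0.26, adjusted p = 0.963), which is a fold between 0.849 and 1.20. Control 1 and 2 are also the libraries with the largest share of mitochondrially encoded counts (24.3% and 29.7%, against 14.4% to 18.9% in the others). Without these controls, Capn1 stood at -0.14 (adjusted p = 0.601).

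Capn2 held 64.8, 73.9, 77.4 and 75.6 CPM in controls and 73.1, 68.8, 63.2 and 68.5 CPM in scMC38. Its log2 fold change was -0.09 (SE 0.08, 95% interval -0.28 to 0.09, adjusted p = 0.536). All 4 scMC38 libraries were below controls 2, 3 and 4, but control 1 was lower than 3 of them.

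Cast, the inhibitor gene, spread further among tumour-bearing mice than among controls. Controls held 95.5, 94.5, 90.9 and 102 CPM and scMC38 libraries 103, 102, 87.1 and 111 CPM. The lowest and the highest of the 8 libraries were both scMC38. Its log2 fold change was 0.07 (SE 0.09, 95% interval -0.13 to 0.27, adjusted p = 0.677). It was 0.02 without scMC38 4 (adjusted p = 0.922), 0.13 without scMC38 3 (adjusted p = 0.369) and 0.17 with neither scMC38 1 nor 3 (adjusted p = 0.364). An exon of Cast overlaps one of Erap1, an aminopeptidase gene on the opposite strand, by 834 bases in the reference annotation, and the sources used here do not give whether counting used strand. Erap1 stood at 20.5 ± 0.707 CPM in controls and 19.0 ± 1.36 in scMC38 (SD, n = 4, adjusted p = 0.411).

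**Figure D2:**
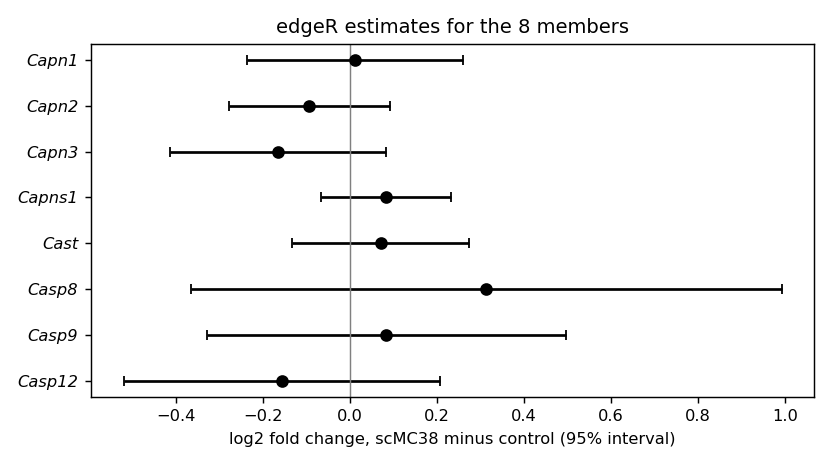
Points give the log2 fold change of scMC38 minus control for each of the 8 genes on the horizontal axis, and bars its 95% interval from edgeR. All 8 intervals include 0, and that of Casp8 is the widest.

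The balance of inhibitor and protease was compared within each library, where scaling between libraries cancels. The log2 ratio of Cast to Capn2 counts was 0.56, 0.35, 0.23 and 0.44 in controls and 0.49, 0.56, 0.46 and 0.70 in scMC38. Its mean was higher by 0.16 in scMC38, with an SD of 0.14 in controls and 0.10 in scMC38. The groups overlapped and the difference did not pass the test (two-sided exact permutation p = 0.114, adjusted p = 0.229 over the 4 ratios tested). Without control 1 the groups did not overlap and the difference was 0.21 (exact permutation p = 0.0286, the smallest this design allows, adjusted p = 0.114), and without control 3 it was 0.10 (exact permutation p = 0.257, adjusted p = 0.343). The log2 ratio of Cast to Capn1 averaged 0.04 ± 0.19 in controls and 0.09 ± 0.07 in scMC38 (SD, n = 4, exact permutation p = 0.686, adjusted p = 0.686). The sign of that difference turned without control 3 (-0.02).

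Capn2 against Capn1 averaged -0.36 ± 0.18 in controls and -0.47 ± 0.04 in scMC38 on the log2 scale (SD, n = 4, exact permutation p = 0.229, adjusted p = 0.305). Control 2 stood alone at -0.09, while the other 7 libraries lay between -0.50 and -0.41. The difference of the means was -0.11, and -0.02 without control 2. Capn3 against Capn1 averaged 0.46 ± 0.14 in controls and 0.27 ± 0.12 in scMC38 (SD, n = 4, exact permutation p = 0.114, adjusted p = 0.229). Its lowest library was scMC38 3 at 0.13 and its highest control 2 at 0.61. The smallest p that 4 against 4 libraries allow is 0.0286, and with the adjustment over 4 ratios a single separated ratio could not pass the threshold.

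**Figure D3:**
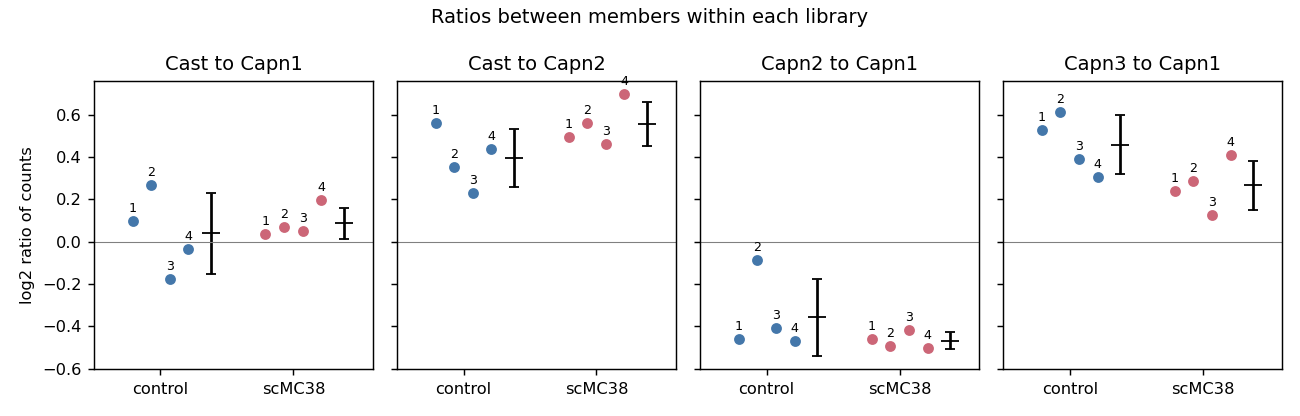
Each panel shows the log2 ratio of 2 genes' counts in the same library (vertical axis), with numbered points for the 8 libraries and the mean with its SD in black. All 4 ratios overlap between control and scMC38.

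In both initiator caspase genes scMC38 3 was the highest library. Casp8 held 3.75, 4.17, 2.88 and 5.10 CPM in controls and 4.72, 3.99, 7.93 and 3.09 CPM in scMC38. The libraries scMC38 1, 2 and 4 lay within the range of the controls and scMC38 3 lay above it. Its log2 fold change was 0.31 (SE 0.30, 95% interval -0.36 to 0.99, adjusted p = 0.573). With scMC38 3 left out it was -0.02 (adjusted p = 0.975), and with neither scMC38 1 nor 3 it was -0.15 (adjusted p = 0.787).

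Among controls Casp9 had the lowest coefficient of variation after Capns1, 3.21%, at 4.15, 4.15, 4.08 and 4.39 CPM. In scMC38 it held 4.77, 3.35, 5.87 and 3.76 CPM, a coefficient of variation of 25.4%. The libraries scMC38 1 and 3 were above all controls and scMC38 2 and 4 below all of them. Its log2 fold change was 0.08 (SE 0.18, 95% interval -0.33 to 0.50, adjusted p = 0.819). With scMC38 3 left out it was -0.08 (adjusted p = 0.782), and with neither scMC38 1 nor 3 it was -0.22 (adjusted p = 0.425). Controls held 204 to 248 Casp9 counts per library, so counting noise is part of these coefficients of variation and was not separated from them. The difference in spread between the groups was not tested.

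**Figure D4:**
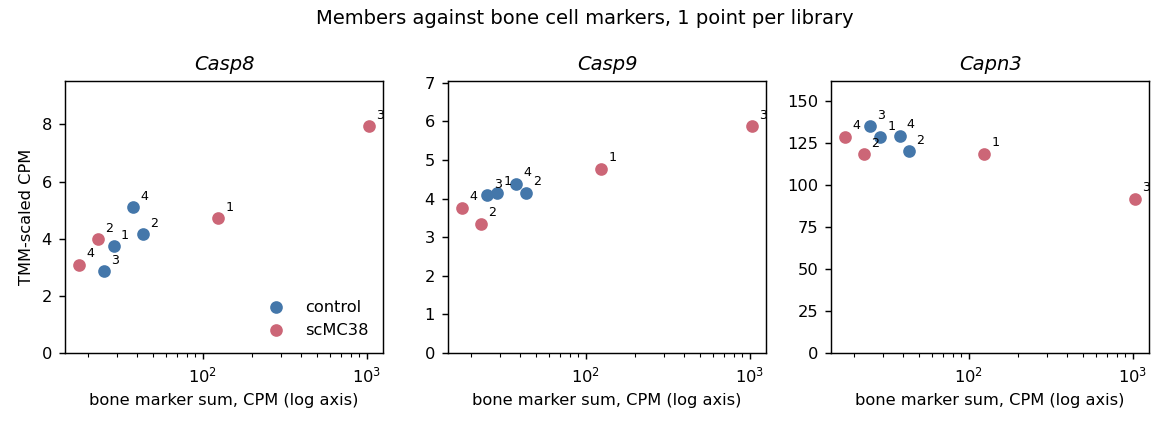
Each point is 1 library, with the summed CPM of 9 bone markers on a log horizontal axis and the CPM of Casp8, Casp9 or Capn3 on the vertical axis. In scMC38 3, where the marker sum is 1032 CPM, Casp8 and Casp9 are highest (7.93 and 5.87 CPM) and Capn3 is lowest (91.9 CPM). In scMC38 1, with the next highest sum (125 CPM), Casp8 is at 4.72, Casp9 at 4.77 and Capn3 at 119 CPM.

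The libraries scMC38 1 and 3, in which Casp9 was above the controls, had the highest sums of bone and neutrophil markers. The neutrophil sums of scMC38 2 and 4, in which Casp9 was below all controls, were also above those of all controls (12.1 and 34.4 CPM against at most 8.12). The part of this mRNA in the caspase levels was not tested. Caspase-8 and caspase-9 are made in most cell types, blood cells included. Among the 8 members, Casp8 and Casp9 had the fewest counts, from 144 to 557 and from 177 to 412 per library, against 3475 to 10138 for the calpain system genes.

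Casp12 had the highest level per kb of the 3 caspase members. Controls held 17.2, 16.2, 11.5 and 20.2 CPM and scMC38 libraries 13.0, 14.9, 14.2 and 16.3 CPM. Controls spread widely and all 4 scMC38 libraries lay inside their range. Casp12 differed by -0.16 on the log2 scale (SE 0.16, 95% interval -0.52 to 0.21, adjusted p = 0.605). It was -0.29 without control 3 (adjusted p = 0.262, unadjusted p = 0.0354) and -0.03 without control 4 (adjusted p = 0.911), so the size of the difference moved with 1 low and 1 high control library. With neither scMC38 1 nor 3 it was -0.04 (adjusted p = 0.940).

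The start window of Casp12 is shown because it holds the letters of the STAT element (TTCNNNGAA) at 2 places, in capitals, on the plus strand of mouse chromosome 9 (chr9:5345326-5345459, GRCm38.p6). STAT factors act downstream of IL-6 and related cytokines.

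Casp12 upstream: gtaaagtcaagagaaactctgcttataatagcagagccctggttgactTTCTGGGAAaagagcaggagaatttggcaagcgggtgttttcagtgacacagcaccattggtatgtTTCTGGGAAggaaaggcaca

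A STAT element was found in 8.30% of all start windows, and among the members' 13 windows in this one and in 1 window of Cast. Both matches read TTCTGGGAA and begin 102 and 36 bases before the RefSeq start site. Casp12 mRNA did not pass the test in either direction, and binding was not measured.

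No other calpain or caspase gene was called either. Of 11 other calpain genes, 6 were tested and 0 were called, with a median log2 fold change of -0.04. Capn6, a calpain without protease activity, had the smallest p (-0.57, SE 0.18, adjusted p = 0.131), followed by Capn12 (0.69, SE 0.42, adjusted p = 0.372), which was under 1 CPM. Capn7, the most abundant of them, stood at 48.0 ± 2.22 CPM in controls and 46.4 ± 4.85 in scMC38 (SD, n = 4). Capn8 had no counts in any library, and Capn9, Capn11, Capn13 and Capns2 were too low to test.

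Of 7 other caspase genes, 6 were tested, all 6 had a positive log2 fold change and 0 were called (median 0.42). Casp4, the mouse caspase-11 gene of the non-canonical inflammasome, came closest at 1.24 (SE 0.29, adjusted p = 0.0825). It held 0.938, 1.03, 0.780 and 1.04 CPM in controls and 1.91, 2.06, 3.52 and 1.44 CPM in scMC38, so its groups did not overlap.

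Upstream and downstream genes were read in the same way. In the death receptor arm, 0 of 10 tested genes were called (median 0.18). Tnfrsf1a, the TNF receptor 1 gene, stood at 0.64 (SE 0.19, adjusted p = 0.122). All its scMC38 libraries were above all controls, but barely, with 29.25 CPM in scMC38 4 and 29.23 CPM in control 2. Bid, which carries the signal of caspase-8 to mitochondria, stood at 1.36 (SE 0.48, adjusted p = 0.161). In the mitochondrial arm, 0 of 21 were called, with 13 positive and 8 negative and a median of 0.070. Bmf, a BH3-only gene, stood at 0.83 (SE 0.19, adjusted p = 0.0779) and Bnip3, a mitophagy receptor of the BCL2 family, at 0.55 (SE 0.15, adjusted p = 0.106). Both were higher in all 4 scMC38 libraries than in all controls.

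The caspase inhibitor list held 0 calls among 9 tested genes (median 0.044). Hspa1a, a heat shock gene, stood at -1.68 on the log2 scale (SE 0.54, adjusted p = 0.134) and Naip2, of the NAIP family, 1.38 (SE 0.54, adjusted p = 0.192). Hspa1a was at 57.2 CPM in control 4 and at most 22.0 CPM in the other 7 libraries, and Naip2 at 3.69 CPM in scMC38 3 and at most 1.48 CPM in the others. Xiap, which binds caspase-9 directly, was at 34.5 ± 2.77 CPM in controls and 31.3 ± 2.44 in scMC38 (SD, n = 4, adjusted p = 0.375), and was chosen for its role. In the execution list, 0 of 8 were called, led by Acin1 (0.23, SE 0.07, adjusted p = 0.112), a chromatin condensation factor, and the lamin gene Lmnb1 (0.79, SE 0.33, adjusted p = 0.215).

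Of 14 endoplasmic reticulum stress genes, the setting in which caspase-12 is known, Ern1 alone was called higher and 0 were called lower. Over all tested genes, 1.2% were called. Ern1 encodes the stress sensor IRE1, and held 10.9, 11.0, 10.4 and 9.51 CPM in controls and 13.5, 14.5, 14.7 and 13.7 CPM in scMC38. All scMC38 libraries were above all controls, and the log2 fold change was 0.43 (SE 0.08, adjusted p = 0.0423). The call was lost in each of the 8 fits that leave out 1 library (adjusted p from 0.0701 to 0.127), where the fold change stayed between 0.39 and 0.46. It was also lost without scMC38 1 and 3 together (0.45, adjusted p = 0.0883). Leaving out both control 1 and control 2 gave 0.49 (adjusted p = 0.245). On all 8 libraries it was lost with no filter on low counts (adjusted p = 0.0623) and with the replicate number as a block (adjusted p = 0.206). In all, Ern1 was called in 6 of 19 alternatives. The list's median was 0.10, with 10 positive and 4 negative. Its largest change was negative, that of Ddit3 (-0.95, SE 0.36, adjusted p = 0.181). The groups of Ddit3 overlapped, and its highest library was control 2 at 16.1 CPM.

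Of 9 tested inflammasome genes, 8 had their highest value in scMC38 3, which also had the highest sum of neutrophil markers. The log2 fold change was positive for 8 and 0 were called, with a median of 1.10 where that of all genes is 0.00087. Il1b, the interleukin-1 beta gene (2.95, SE 0.98, adjusted p = 0.145), and Card9, an adaptor of myeloid cells (2.69, SE 0.91, adjusted p = 0.149), had the smallest p, and Card9 stood at 7.32 CPM in scMC38 3 and at most 0.552 CPM outside scMC38 1 and 3. The 15 macrophage markers summed to between 150 and 213 CPM in controls and to 528, 331, 716 and 165 CPM in scMC38 1 to 4. The part of these cells in the inflammasome values was not tested.

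The substrates and partners of calpains showed 0 calls among 18 tested genes, with 12 positive, 6 negative and a median of 0.16. Sptan1, alpha-II spectrin, a classical target whose fragments are used to read calpain activity, came closest. It held 83.8, 102, 88.1 and 85.7 CPM in controls and 61.5, 55.4, 72.3 and 62.7 CPM in scMC38, with no overlap (log2 fold change -0.51, SE 0.10, adjusted p = 0.0568). Myom1, an M-band protein gene, stood at 0.40 (SE 0.16, adjusted p = 0.196).

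**Figure D5:**
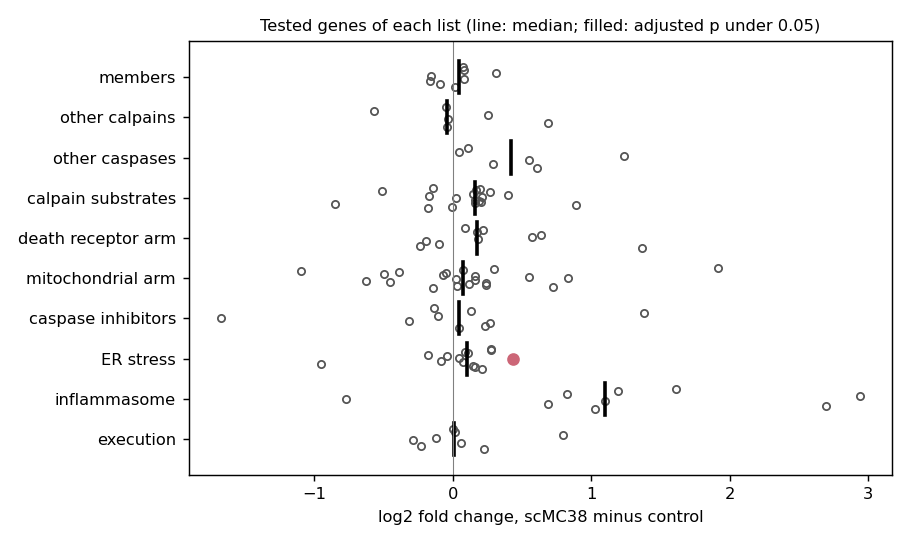
Each circle is 1 tested gene with its log2 fold change on the horizontal axis, grouped by list, with a line at each list's median and a filled circle for a call. The 8 members lie between -0.16 and 0.31, and the filled circle is Ern1 at 0.43.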

How the data were processed

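Quadriceps RNA of 8 mice was sequenced with the Universal Plus mRNA-seq kit, per the labels' protocols. Salmon 1.10.3, fastp 1.0.1, R 4.4.3 and the build GRCm39 are listed without roles in the submitters' processing notes. The deposited values are unscaled estimated counts, and 49.3% of those above 0 are not whole. Annotation release and strand use: not given in the sources used here. Groups came from sample titles and columns from library names. Of 35667 rows, 144 without a symbol were left out (at most 0.00403% of counts), 26 repeated symbols were summed, and counts were rounded.

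edgeR 4.0.16 in R 4.3.3 was used (filterByExpr with minimum count 10 and minimum total 15, TMM, robust quasi-likelihood F test, no covariate). Benjamini-Hochberg adjustment ran over 14112 genes, at 0.05. Standard errors are those implied by F. The script was tested on simulated data. DESeq2 1.42.0 and limma 3.58.1 (voom) were alternatives, with other scalings, filters, a replicate block and libraries left out. Ratios used exact permutation over 70 assignments. Replicate pairs differed beyond counting noise (chi-square per degree of freedom at least 63.2), and the common biological coefficient of variation was 27.3%.

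Start windows come from RefSeq (GRCm38.p6), matched by symbol for all 8 members. That build differs from GRCm39, so they were used by name alone, and the motifs searched were chosen with these windows in view. The members, gene lists and alternatives were chosen with earlier results of these data known. From each pathway list, up to 4 called genes were named or, with none called, the 2 with the smallest p. Capn7, Xiap, Ddit3 and the genes named only for their counts were added. A gene that this rule named is not reported here.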

Additional observations from a re-analysis of the deposited data

Results flagged for a closer look

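With a test for a single distant value in groups of 4, 9 of 74 groups of values had 1 library apart from the other 3. Of these 9, 4 were set by scMC38 3. The cut-off passes about 1 in 20 groups of independent normal values. These groups share libraries and some are skewed, so that rate does not apply to them. Among the members, the log2 ratio of Capn2 to Capn1 was -0.0872 in control 2 against -0.471 to -0.409 in the other controls. Bid stood at 1.09 CPM in control 4 (others 0.500 to 0.554) and at 3.53 CPM in scMC38 3 (others 1.02 to 1.28). Bmf was at 2.91 CPM in control 1 (others 3.88 to 4.00), and Naip2 at 0.800 CPM in control 3 (others 0.569 to 0.591). Lmnb1 was at 20.7 CPM in scMC38 3 (others 7.25 to 9.38). The summed neutrophil and bone markers were 4188 and 1032 CPM in scMC38 3, and the summed red cell markers 1087 CPM in control 2 (others 501 to 596).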

How the results depend on the processing

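In all 19 alternatives 0 members were called in either direction. Capn3 and Casp12 stayed negative and Capns1 and Cast positive in all of them. Capn1 turned negative in 4 of the 8 fits without 1 library (range -0.0654 to 0.0703) and without control 1 and 2 together (-0.14). Capn2 turned positive with total counts (0.0103). Casp8 and Casp9 turned negative without scMC38 3, the low end of their ranges with 1 library left out (-0.0165 to 0.481 and -0.0828 to 0.198), and without scMC38 1 and 3 together (-0.15 and -0.22), also in that fit without mitochondrially encoded genes (-0.14 and -0.22). The log2 ratio of Cast to Capn1 ranged from -0.0242 to 0.124 with 1 library left out. That of Cast to Capn2 ranged from 0.104 to 0.213, of Capn2 to Capn1 from -0.149 to -0.0207 and of Capn3 to Capn1 from -0.245 to -0.142. No ratio had an adjusted p under 0.05 in any setting, but with 2 libraries left out or with paired sign flips the design allows no p under 0.05.

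Calls over all genes moved more. Without 1 library they ranged from 1 to 59 higher and 1 to 52 lower, against 104 and 66. Total counts gave 216 higher, DESeq2 829 and 597, no filter 69 higher. Without scMC38 1 and 3 they were 25 and 39, and 23 and 39 when mitochondrially encoded genes were also left out, an alternative added after seeing the data. Without control 1 and 2 they were 0 and 0, with 1605 genes at an unadjusted p under 0.05. With the replicate number as a block they were 0 and 1, with 2004 genes at an unadjusted p under 0.05. Same-numbered libraries did not deviate together (r from -0.28 to -0.0058). These correlations cannot show whether the mice were paired. The cause of these moves was not tested. Casp8 and Casp9 had the fewest counts of the members, and whether depth limits them was not tested.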
